A study of Mus musculus with 15 samples.

Results

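The genes described here encode 10 enzymes and transporters of antioxidant defence, namely Nqo1, Gclc, Gclm, Slc7a11, Gsr, Txnrd1, Srxn1, Hmox1, Sod2 and Cat. They were taken by gene name from a table of 23589 named loci. The table has 12 rows that carry one of these names, of which 10 lie on the strand of the gene and 2, at Srxn1 and Gclc, lie on the opposite strand and were kept apart. Male C57BL/6 mice under 3 diets gave RNA of the hypothalamus, the hippocampus, the liver, the colon and the epididymal fat. AL mice were fed without limit and were 5 months of age. DR mice had their food restricted by 40% for 1 month from 4 months of age and were also 5 months of age. DR-AL mice were restricted in the same way and then fed without limit for 2 months, so they were 7 months of age and their diet and age cannot be told apart. Each tissue and diet gave 1 library, made from RNA pooled over 5 mice, 15 libraries in all, with between 21767088 and 40500130 counts on named loci.

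Nrf2, encoded by Nfe2l2, is a transcription factor that Keap1 and Cul3 mark for degradation in unstressed cells. When Keap1 is modified by electrophiles or oxidants, Nrf2 accumulates, pairs with a small Maf protein and binds antioxidant response elements near its target genes. Its best known targets detoxify quinones, make and reduce glutathione, and reduce thioredoxin, whereas Sod2 and Cat are antioxidant enzymes that also answer to other regulators. In the liver this system is known for the handling of drugs and reactive metabolites.

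Promoter sequences of RefSeq on GRCm38.p6 were on hand for 7 of the 10 genes, and Gclc, Hmox1 and Gsr had no entry. The 250 bases before each start were searched on both strands for the core of the antioxidant response element, TGACNNNGC, and for the AP-1 site TGACTCA, whose first letters are also those of the core. Gclm, the modifier subunit of glutathione synthesis, and the middle of the 3 starts of Txnrd1, the cytosolic thioredoxin reductase, each held 1 core. Srxn1, the sulfiredoxin that repairs overoxidised peroxiredoxins, held 2 AP-1 sites and no core. Of 32851 mouse promoters, 10.2% held the core and 4.46% the AP-1 site in a window of the same length. These 3 sequences are shown because they hold the matches, which are in capitals and lie on the opposite strand, and a match describes the letters only. Counts per gene do not tell which start of Txnrd1 was used.
Gclm, chr3:122245307-122245556, plus strand: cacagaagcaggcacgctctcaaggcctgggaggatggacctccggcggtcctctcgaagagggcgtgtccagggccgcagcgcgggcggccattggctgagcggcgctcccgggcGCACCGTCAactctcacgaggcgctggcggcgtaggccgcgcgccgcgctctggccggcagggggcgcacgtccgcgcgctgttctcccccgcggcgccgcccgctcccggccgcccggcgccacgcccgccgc
Txnrd1, chr10:82858956-82859205, plus strand: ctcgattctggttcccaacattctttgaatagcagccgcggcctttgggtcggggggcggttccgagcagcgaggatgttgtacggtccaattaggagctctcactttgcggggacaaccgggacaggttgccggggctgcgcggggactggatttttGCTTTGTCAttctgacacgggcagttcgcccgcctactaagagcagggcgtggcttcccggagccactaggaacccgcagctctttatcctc
Srxn1, chr2:152105274-152105523, plus strand: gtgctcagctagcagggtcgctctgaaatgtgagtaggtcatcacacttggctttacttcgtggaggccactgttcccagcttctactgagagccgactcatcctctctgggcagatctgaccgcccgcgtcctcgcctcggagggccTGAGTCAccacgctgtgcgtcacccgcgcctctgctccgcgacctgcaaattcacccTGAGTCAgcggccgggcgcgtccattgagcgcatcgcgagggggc

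Because a tissue and diet gave a single library, differences within a tissue compare 2 libraries and not the diets. A gene was called higher or lower when the Z test of the study's methods passed a Benjamini-Hochberg adjusted p of 0.05 over all genes of the tissue and the larger level was at least 25% above the smaller (the fold threshold). Levels are CPM, the counts of a gene scaled to a common total on named loci, and the intervals of fold changes are exact 95% Clopper-Pearson intervals, which cover counting error only. The 3 comparisons of a tissue share libraries. In bulk RNA, fewer cells of a type and less RNA per cell cannot be told apart.

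Calls of the 10 genes are set beside the share of all genes of the tissue called by the same rule. In the liver, DR against AL gave 1 higher and 2 lower, where 28% of all genes were called (18% higher, 9.92% lower). DR-AL gave 3 higher and 2 lower against AL (30.9% of all genes, 15% and 15.8% by direction) and 3 higher and 2 lower against DR (40.8%, 16.9% and 24%). In epididymal fat, DR against AL gave 4 higher and 1 lower, where 45.6% of all genes were called (35.2% higher, 10.4% lower). DR-AL gave 5 higher and 2 lower against AL (57.9% of all genes, 46% and 11.9% by direction) and 4 higher and 1 lower against DR (51.6%, 38.3% and 13.3%). In the colon, DR against AL gave 2 higher and 5 lower, where 19.7% of all genes were called (9.04% higher, 10.6% lower). DR-AL gave 2 higher and 2 lower against AL (14.3% of all genes, 5.83% and 8.5% by direction) and 1 higher and 1 lower against DR (14.5%, 6.78% and 7.67%). In the hypothalamus, DR against AL gave 1 higher and 0 lower, where 7.05% of all genes were called (4.33% higher, 2.72% lower). DR-AL gave 0 higher and 3 lower against AL (15.1% of all genes, 6.06% and 9.02% by direction) and 0 higher and 1 lower against DR (9.62%, 2.82% and 6.8%). In the hippocampus, DR against AL gave 1 higher and 0 lower, where 4.03% of all genes were called (1.36% higher, 2.67% lower). DR-AL gave 0 higher and 0 lower against AL (6.15% of all genes, 3.99% and 2.16% by direction) and 0 higher and 0 lower against DR (4.88%, 3.63% and 1.26%). Over the 50 gene and tissue pairs, 9 were called higher and 8 lower in DR against AL, and 10 higher and 9 lower in DR-AL against AL, so the genes did not share a direction.

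**Figure D1:**
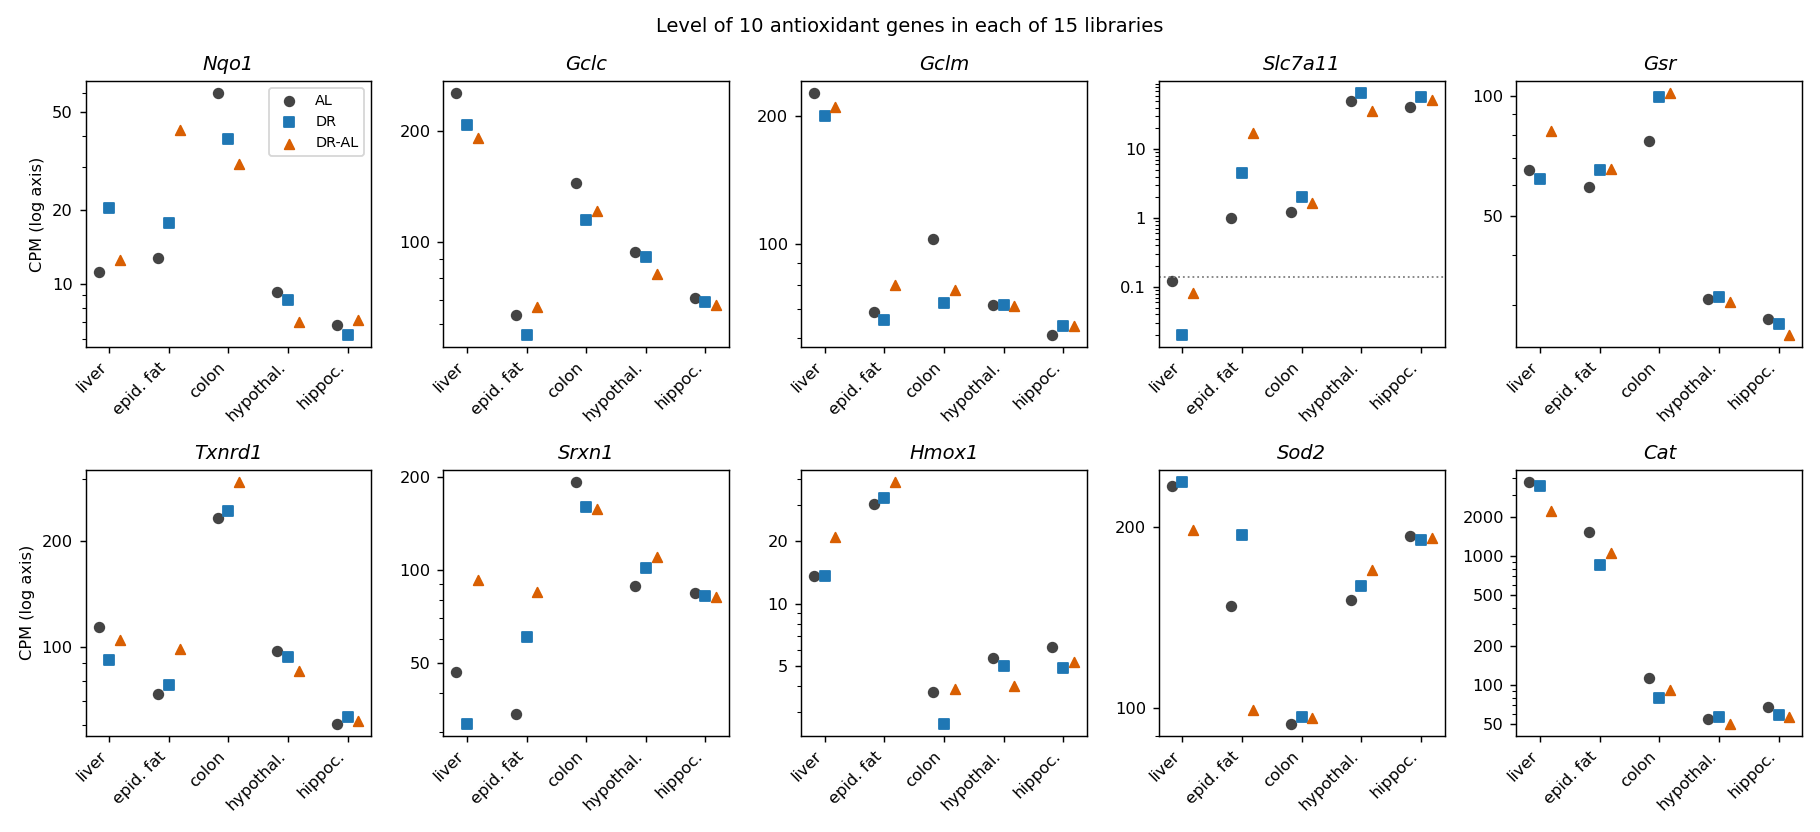
Level of the 10 genes in CPM (log axes that do not start at 0) in each of the 15 libraries, 1 point per library, by tissue and diet. The dotted line in the panel of Slc7a11 is the highest level that 3 counts give in a library, and the liver DR library, at 0 counts, is drawn at the lower edge.

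The labelled tissues held their own markers, with 1 exception in the table, Alb, which was listed at 0 counts in all libraries, the liver included. The 3 fat libraries were not of equal make-up. AL fat held 7 of 8 liver markers at between 7.98% and 55.2% (median 12.1%) of their level in AL liver, against medians of 0.114% in DR fat and 0.0170% in DR-AL fat. The highest of these, Cyp2e1, stayed at 33.3% in DR fat and 26.1% in DR-AL fat. The summed level of 7 testis germ cell markers was 4.77 CPM in AL fat, 583 CPM in DR fat and 2818 CPM in DR-AL fat, and that of 8 epididymis markers was 909, 3275 and 5119 CPM, most of it Crisp1. The median of the 8 epididymis markers was 0.286 CPM in AL fat, 36.4 CPM in DR fat and 11.4 CPM in DR-AL fat, so it was highest in DR. In AL fat 2 of the 8 epididymis markers, Cst8 and Lcn9, were at 0, and in DR-AL fat Lcn9 was at 0. Adipocyte markers summed to 39308, 32812 and 26759 CPM, and smooth muscle markers to 1247, 3702 and 1215 CPM. Scaling also matters in fat. Relative to total counts, DESeq size factors lowered every log2 fold change by 0.19 in DR and 0.34 in DR-AL, and TMM by 0.22 and 0.47. Ratios of the deposited FPKM were shifted against those of CPM by -0.73 for DR and by -1.62 for DR-AL (median log2 difference over 7301 and 7538 loci with over 500 counts). For this reason some fat values below are also given relative to the median of the 17306 genes that averaged 10 counts or more, which on total counts was 0.24 in DR and 0.34 in DR-AL. Subtracting it cancels any factor common to a library, so these values differ only between counts and FPKM (pseudocounts of 0.1 and 1).

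Nqo1, the quinone reductase that is the classical marker of Nrf2 activity, moved in opposite directions in liver and colon. In the liver its level was 11.2 CPM in AL (276 counts), 20.5 CPM in DR (446 counts) and 12.5 CPM in DR-AL (307 counts). Only the DR library stood out. The fold change of DR against AL was 1.83 (log2 0.88, interval 0.66 to 1.10), DR-AL did not pass against AL (log2 0.17, interval -0.07 to 0.41), and DR-AL was lower than DR (log2 -0.71, interval -0.92 to -0.50). In the colon, where Nqo1 was most abundant, the level was 59.8 CPM in AL, 39.0 CPM in DR and 30.7 CPM in DR-AL. The DR and the DR-AL library were therefore both below AL, with log2 fold changes of -0.61 (interval -0.72 to -0.51) and -0.96 (interval -1.09 to -0.84). Of these calls, the liver DR and colon DR-AL calls passed an exact test that allowed a biological coefficient of variation of 0.1, and the colon DR call did not.

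In fat, Nqo1 was at 12.8 CPM in AL (336 counts), 17.7 CPM in DR (403 counts) and 42.5 CPM in DR-AL (1162 counts). DR-AL fat was the high library, with a fold change against AL of 3.31 (log2 1.73, interval 1.55 to 1.91). Relative to the median gene the log2 difference of DR-AL was 1.39 on counts and 1.28 and 0.92 on FPKM. That of DR was 0.22 on counts and 0.16 and 0.084 on FPKM, and its call was lost with DESeq size factors (log2 0.27) and TMM (log2 0.24). In the hypothalamus Nqo1 was at 9.33 CPM in AL (277 counts), 8.61 CPM in DR (282 counts) and 7.02 CPM in DR-AL (219 counts), and only DR-AL against AL was called (log2 -0.41, interval -0.67 to -0.15). That call did not pass the exact test with a coefficient of variation of 0.1. In the hippocampus Nqo1 stayed between 6.21 and 7.15 CPM with no call.

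Gclc and Gclm encode the catalytic and the modifier subunit of glutamate-cysteine ligase, the rate-limiting enzyme of glutathione synthesis. Gclc was at 145, 115 and 122 CPM in the AL, DR and DR-AL colon, and at 253, 208 and 192 CPM in the liver. In both tissues AL was the highest library. The colon passed in DR against AL (log2 -0.33, interval -0.40 to -0.27) and the liver in DR-AL against AL (log2 -0.40, interval -0.46 to -0.35), while the liver DR library, at log2 -0.28, missed the fold threshold on total counts and passed it with DESeq size factors (-0.37) and TMM (-0.37). Neither call on total counts passed the exact test with a coefficient of variation of 0.1. In fat, Gclc was at 63.7, 56.2 and 67.0 CPM and in the brain regions between 67.6 and 94.1 CPM, with no call in any of the 3 tissues.

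Gclm was lower in the DR and the DR-AL colon library than in AL. Its colon level was 103 CPM in AL (2723 counts), 72.6 CPM in DR (2425 counts) and 77.7 CPM in DR-AL (1947 counts), with log2 fold changes of -0.50 (interval -0.58 to -0.42) and -0.40 (interval -0.48 to -0.31). Neither call passed the exact test with a coefficient of variation of 0.1. Elsewhere Gclm was not called on total counts. It was at 69.0, 66.0 and 79.7 CPM in fat, where the log2 value of DR-AL was -1.33 on FPKM, and ranged from 71.4 to 71.6 CPM over the 3 hypothalamus libraries, from 60.9 to 64.0 CPM in the hippocampus and from 199 to 226 CPM in the liver. AL fat differed in its liver content from the other fat libraries. AL liver CPM multiplied by the 12.1% median of liver markers equals 48.1% of the CPM of Gclc and 39.6% of that of Gclm in AL fat, and 0.513% and 0.389% with the median of DR fat, and its part in the fat values was not tested.

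Slc7a11 encodes xCT, the cystine importer that feeds glutathione synthesis, with a wide range between tissues. In fat it rose from 0.992 CPM in AL (26 counts) to 4.47 CPM in DR (102 counts) and 17.2 CPM in DR-AL (470 counts). All 3 fat libraries are well separated. The fold changes against AL were 4.44 in DR (log2 2.15, interval 1.54 to 2.85) and 17.0 in DR-AL (log2 4.09, interval 3.55 to 4.74). Relative to the median gene of fat, the log2 difference was 1.91 in DR and 3.75 in DR-AL on counts, 1.37 and 2.85 on FPKM with a pseudocount of 0.1, and 0.54 and 1.30 with a pseudocount of 1, and both calls passed the exact test with a coefficient of variation of 0.1. The rise runs alongside the sums of testis and epididymis markers given above, but the median epididymis marker was highest in DR. The part of these tissues was not tested.

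In the brain, Slc7a11 was higher in both DR libraries than in AL. The hypothalamus had 50.8 CPM in AL (1508 counts), 65.3 CPM in DR (2137 counts) and 35.7 CPM in DR-AL (1115 counts), so DR was the highest and DR-AL the lowest library. The log2 fold changes were 0.36 in DR against AL (interval 0.27 to 0.46), -0.51 in DR-AL against AL (interval -0.62 to -0.40) and -0.87 in DR-AL against DR (interval -0.97 to -0.76). The hippocampus had 41.4 CPM in AL, 57.7 CPM in DR and 51.6 CPM in DR-AL, and DR passed (log2 0.48, interval 0.38 to 0.58) while DR-AL, at log2 0.32, did not. Of these brain calls only the last of the hypothalamus passed the exact test with a coefficient of variation of 0.1. Across the AL, DR and DR-AL hypothalamus libraries, 8 telencephalon markers summed to 49.3, 88.4 and 74.6 CPM, against between 1703 and 1919 CPM in the hippocampus, and red cell markers to 114, 57.3 and 37.0 CPM. In the hippocampus 6 choroid plexus markers summed to 225, 146 and 244 CPM. Their part was not tested. In the colon the counts were 32, 67 and 42, and DR was called higher on those small numbers (log2 0.73, interval 0.11 to 1.39). In the liver they were 3, 0 and 2. The call in the liver, 1 of the 2 lower calls in DR, rests on counts at or under the 3 counts that a count of 0 allows, and no fold change is given.

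Gsr, the glutathione reductase, was higher in the DR and DR-AL colon libraries, at 77 CPM in AL, 99.4 CPM in DR and 102 CPM in DR-AL. DR and DR-AL lay close together, with log2 fold changes against AL of 0.37 (interval 0.29 to 0.45) and 0.40 (interval 0.32 to 0.49). Gsr in the colon was thus higher in the same libraries in which Nqo1, Gclm and, in DR, Gclc were lower. In the liver Gsr was at 65.1, 61.9 and 81.8 CPM, and DR-AL passed against AL (log2 0.33, interval 0.23 to 0.42) and against DR (log2 0.40, interval 0.30 to 0.50). None of the calls of Gsr against AL passed the exact test with a coefficient of variation of 0.1. In fat Gsr lay between 59.3 and 65.7 CPM and in the brain between 25.2 and 31.3 CPM, without a call.

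Txnrd1 had no call in DR against AL in any tissue. Its colon level was 233 CPM in AL, 244 CPM in DR and 295 CPM in DR-AL, and DR-AL passed (log2 0.34, interval 0.29 to 0.39). It did not pass the exact test with a coefficient of variation of 0.1. The fat level of Txnrd1 was 73.3, 77.9 and 98.8 CPM, and the call of DR-AL (log2 0.43) was lost with DESeq size factors (0.09) and TMM (-0.04). In the liver DR was the lowest library, at 91.4 CPM against 114 CPM in AL (log2 -0.32, just inside the fold threshold), and the call appeared with DESeq size factors (-0.40) and TMM (-0.41). In the annotation, Eid3 lies within Txnrd1 on the same strand, so reads of the overlap cannot be assigned to one of them.

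Srxn1 had the largest fold change in the liver among the 9 genes with more than 3 counts there. The liver level was 46.9 CPM in AL (1159 counts), 31.8 CPM in DR (692 counts) and 92.9 CPM in DR-AL (2275 counts). DR was below AL (log2 -0.56, interval -0.70 to -0.42) and DR-AL above it (log2 0.99, interval 0.88 to 1.09), so that DR-AL was 2.92-fold above DR (log2 1.55, interval 1.42 to 1.67). The DR-AL differences passed the exact test with a coefficient of variation of 0.1, and that of DR against AL did not. In fat Srxn1 rose from 34.3 CPM in AL (899 counts) to 60.9 CPM in DR (1390 counts) and 85.1 CPM in DR-AL (2327 counts), with log2 fold changes of 0.83 (interval 0.71 to 0.95) and 1.31 (interval 1.20 to 1.42). On deposited FPKM the DR-AL difference turned to -0.30, and relative to the median gene of fat it was 0.97 on counts and 0.88 and 0.57 on FPKM. The other tissues had no call. In the colon AL was the highest library, at 193 CPM against 160 CPM in DR and 158 CPM in DR-AL, in the hypothalamus the order was opposite, at 88.5, 102 and 111 CPM, and the hippocampus lay between 81.6 and 84.4 CPM.

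Hmox1 encodes the heme oxygenase that opens the heme ring and is also a target of the repressor Bach1. The liver level was 13.7 CPM in AL (338 counts), 13.6 CPM in DR (295 counts) and 20.9 CPM in DR-AL (511 counts). AL and DR lay close together and DR-AL stood above both (log2 0.61 against AL, interval 0.41 to 0.81, and 0.62 against DR, interval 0.41 to 0.83). Fat had the highest level of the 5 tissues on CPM, at 30.2, 32.3 and 38.7 CPM, and the call of DR-AL (log2 0.36) was lost with DESeq size factors (0.02) and TMM (-0.12). The hypothalamus had 162, 164 and 125 counts, with DR-AL called lower (log2 -0.45, interval -0.80 to -0.10). The colon had 99, 88 and 97 counts, and DR was called lower on them (log2 -0.50, interval -0.93 to -0.07). The calls against AL in liver, hypothalamus and colon did not pass the exact test with a coefficient of variation of 0.1. In DR-AL against AL on total counts, the log2 values of Hmox1 were above 0 in the 3 peripheral tissues and below 0 in both brain regions. The intervals of colon (log2 0.05) and hippocampus (-0.24) included 0, and fat was below 0 with TMM (-0.12). The edgeR quasi-likelihood fit, which used TMM, gave a log2 difference of brain minus periphery of -0.61 (SE 0.27, adjusted p = 0.737).

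**Figure D2:**
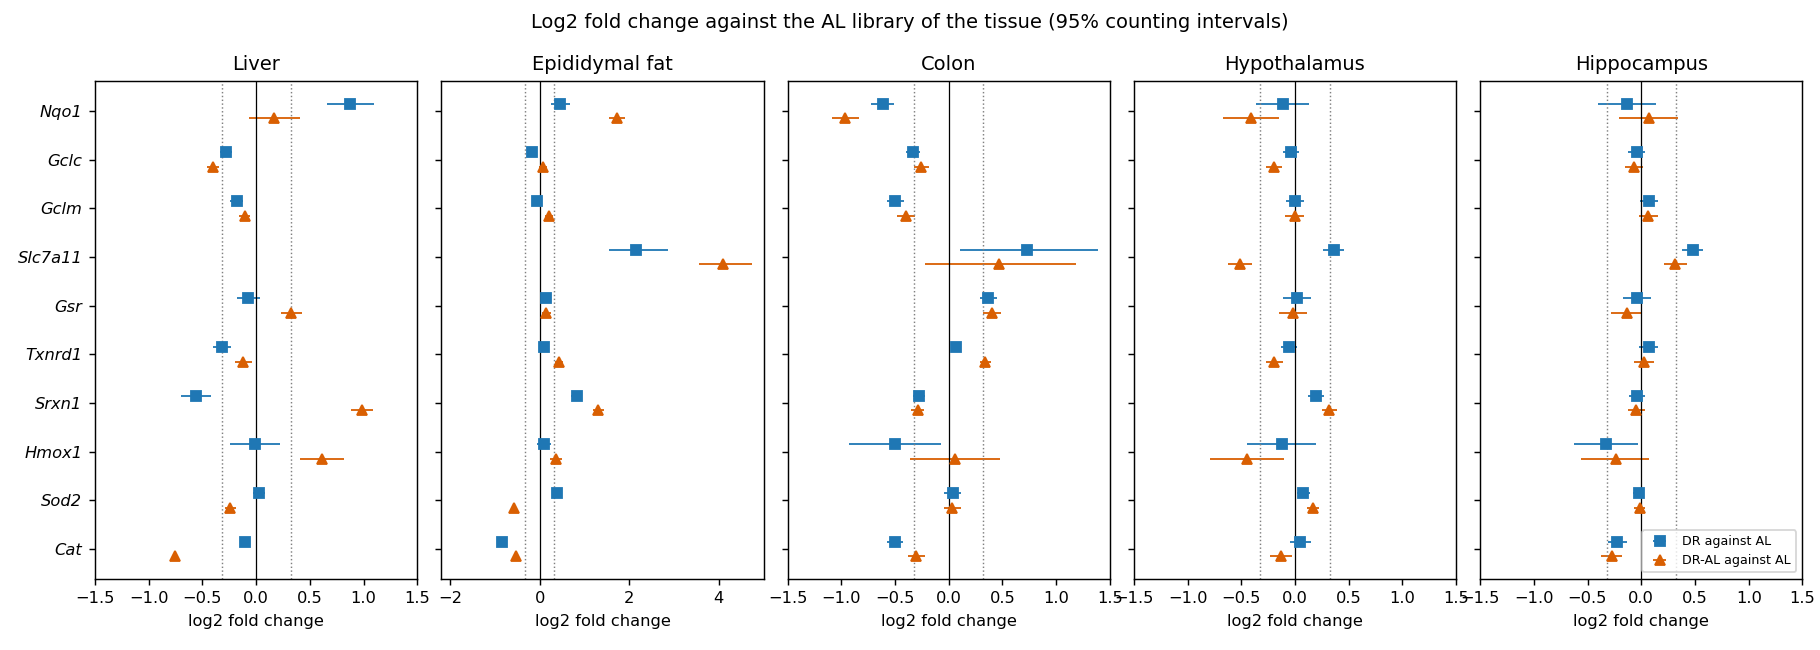
Log2 fold change of each gene in the DR and the DR-AL library against the AL library of the tissue, with exact 95% counting intervals and dotted lines at the fold threshold. Slc7a11 in the liver is left out because its counts were at most 3, and the axis of fat is wider than the others.

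Sod2, the superoxide dismutase of mitochondria, was called in fat only. The fat level was 148 CPM in AL (3882 counts), 194 CPM in DR (4422 counts) and 99.2 CPM in DR-AL (2714 counts), with DR highest and DR-AL lowest. The log2 fold changes were 0.39 in DR against AL (interval 0.32 to 0.45), -0.58 in DR-AL against AL (interval -0.65 to -0.51) and -0.97 in DR-AL against DR (interval -1.03 to -0.90). Relative to the median gene of fat, DR-AL lay at -0.91 on counts and -1.01 and -1.22 on FPKM (log2), whereas the DR call was lost with DESeq size factors (0.20) and TMM (0.17) and turned to -0.26 on FPKM. Outside fat, the range was 94.2 to 96.6 CPM in the colon, 190.1 to 193 CPM in the hippocampus, 151 to 170 CPM in the hypothalamus and 198 to 238 CPM in the liver.

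Cat encodes catalase, the peroxisomal enzyme that breaks down hydrogen peroxide, and was the most abundant of the 10 in the liver. The liver level was 3769 CPM in AL (93214 counts), 3498 CPM in DR (76143 counts) and 2234 CPM in DR-AL (54720 counts). DR was near AL (log2 -0.11) and DR-AL lower (log2 -0.75, interval -0.77 to -0.74). In fat it fell from 1539 CPM in AL (40339 counts) to 862 CPM in DR (19676 counts) and 1067 CPM in DR-AL (29189 counts), with log2 fold changes of -0.84 (interval -0.86 to -0.81) and -0.53 (interval -0.55 to -0.51). These liver and fat calls passed the exact test with a coefficient of variation of 0.1. Relative to the median gene of fat, Cat lay at -1.08 in DR and -0.86 in DR-AL on counts and at -1.17 and -0.95 on FPKM with a pseudocount of 0.1 (log2). AL liver CPM times the liver marker median equals 29.6% of the CPM of Cat in AL fat. The colon had 114, 80.4 and 92.2 CPM, with DR called lower (log2 -0.50, interval -0.58 to -0.42), a call that did not pass that exact test. The hippocampus had 68.3, 58.6 and 56.4 CPM and the hypothalamus 55.1, 57.0 and 50.4 CPM, without a call.

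**Figure D3:**
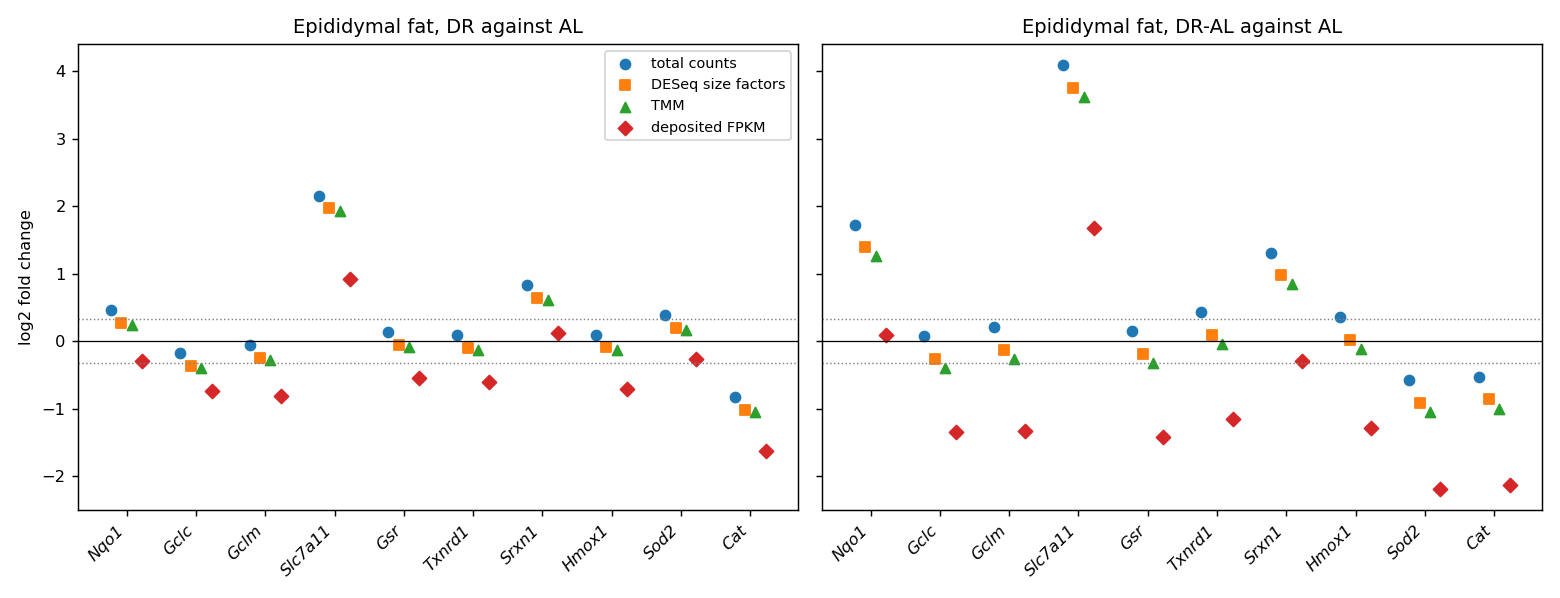
Log2 fold change of the 10 genes in epididymal fat in DR and in DR-AL against AL under 4 scalings, total counts, DESeq size factors, TMM and deposited FPKM with a pseudocount of 0.1, with dotted lines at the fold threshold. The order of the genes is largely kept while the position of 0 shifts, so that Txnrd1 and Hmox1 in DR-AL lie above 0 on total counts (0.43 and 0.36) and below it with TMM (-0.04 and -0.12).

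To ask whether diet had an effect shared by the tissues, the 15 libraries were fitted together with tissue as a term, using the edgeR quasi-likelihood test with TMM. The tissues came from the same mice, so they are not independent animals. None of the 10 genes passed an adjusted p of 0.05 in any of the 3 comparisons, where 2, 1 and 2 of 17476 genes did (0.0114%, 0.00572% and 0.0114%). At an unadjusted p of 0.05 the counts were 1, 2 and 0 of 10, where 3.76%, 4.93% and 3.75% of all genes stood. DESeq2 also called 0, with 3, 2 and 0 at the unadjusted level (5.55%, 6.30% and 5.67% of all genes). The genes nearest to a shared effect were Gclc and Cat. Gclc was lower in DR in all 5 tissues and lower in DR-AL in 4 of 5, with shared log2 changes of -0.24 (SE 0.09, adjusted p = 1.00) and -0.23 (SE 0.09, adjusted p = 0.852). In the DR hypothalamus and hippocampus the log2 values of Gclc were only -0.04 and -0.04, with counting intervals that included 0. Cat was lower in DR in 4 of 5 tissues and in DR-AL in 5 of 5, with shared log2 changes of -0.39 (SE 0.18, adjusted p = 1.00) and -0.47 (SE 0.18, adjusted p = 0.852). Red cell markers also summed lower in DR and DR-AL than in AL in all 5 tissues, such as 503, 235 and 297 CPM in fat. In the DR hypothalamus these markers were lower (57.3 against 114 CPM) and Cat was not. The part of red cells was not tested. For Nqo1 the shared change in DR was 0.00 with a 95% interval from -0.66 to 0.66, which leaves room for a change of either sign. Slc7a11 had the widest interval, from -0.36 to 2.15 around 0.90 in DR-AL.

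**Figure D4:**
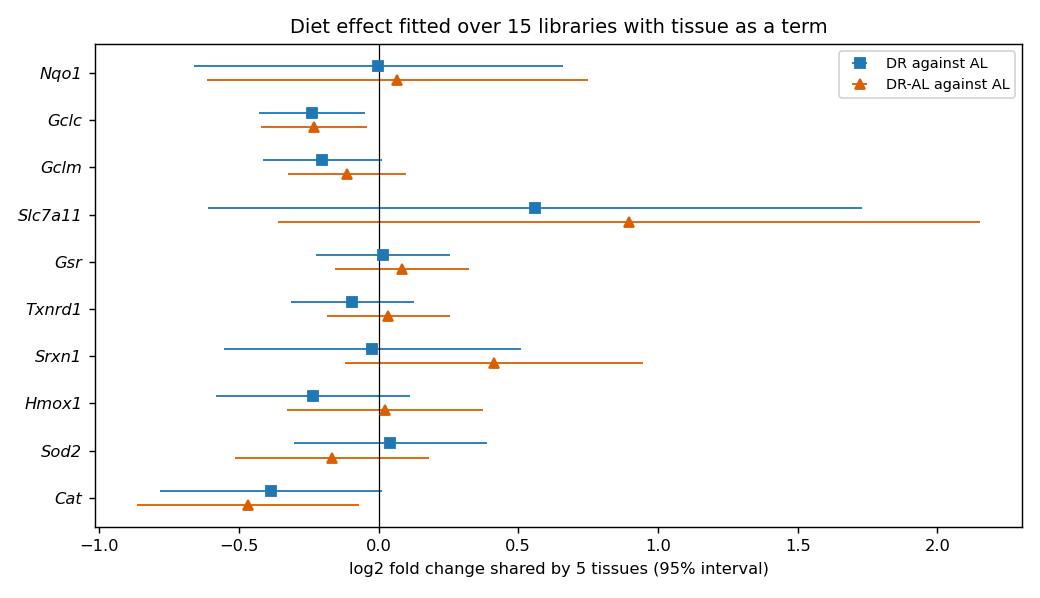
Shared log2 fold change of each gene over 5 tissues in DR and in DR-AL, each against AL, with 95% intervals from the edgeR quasi-likelihood fit to 15 libraries. The intervals of Gclc lie below 0 in both comparisons (unadjusted), and no gene passed after adjustment.

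The difference in diet effect between the 2 brain regions and the 3 peripheral tissues was tested as an interaction, and 0 of 10 genes passed in either comparison with edgeR or DESeq2. At an unadjusted p of 0.05, edgeR had 0 in DR and 1 in DR-AL (4.34% and 6.94% of all genes) and DESeq2 had 2 and 1 (3.75% and 4.53%). Over all genes edgeR called 0 in DR and 20 of 18569 in DR-AL (0.108%). The lowest adjusted p was that of Slc7a11 in DR-AL, with a log2 difference of brain minus periphery of -2.24 (SE 0.94, adjusted p = 0.694). On total counts its mean log2 fold change was -0.10 in the brain regions and 1.36 in the peripheral tissues. Within the periphery, fat stood at 4.09 and colon, not called, at 0.47, and the liver value came from 2 and 3 counts. The brain regions went opposite ways, at -0.51 in hypothalamus and 0.32 in hippocampus.

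Levels between tissues were compared over the 3 diets (mean ± SD, n = 3 libraries). Cat was highest in liver, with 3167 ± 819 CPM, before 1156 ± 347 in fat, 95.4 ± 16.9 in colon, 61.1 ± 6.35 in hippocampus and 54.2 ± 3.43 in hypothalamus. Nqo1 was highest in colon (43.2 ± 15 CPM), before fat (24.3 ± 15.9), liver (14.7 ± 5.04), hypothalamus (8.32 ± 1.19) and hippocampus (6.73 ± 0.477). Slc7a11 was highest in hypothalamus (50.6 ± 14.8 CPM) and hippocampus (50.3 ± 8.24), before fat (7.55 ± 8.52), colon (1.63 ± 0.402) and liver (0.0676 ± 0.0618). Both subunits of glutathione synthesis were highest in liver, Gclc at 218 ± 32.0 CPM and Gclm at 212 ± 13.5 CPM, followed by colon at 127 ± 15.8 and 84.3 ± 16.0 CPM. The reductases Txnrd1 and Gsr, at 257 ± 33.0 and 92.7 ± 13.7 CPM, and the sulfiredoxin Srxn1, at 170 ± 19.7 CPM, were also highest in colon. Sod2 varied least, from 223 ± 21.9 CPM in liver to 95.7 ± 1.32 CPM in colon.

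Neighbours in these orders were tested with the edgeR quasi-likelihood fit and TMM, under which between 30.7% and 77.8% of all genes differed between a pair of tissues. Of 40 neighbouring pairs, 19 passed in the order of the mean CPM, 20 did not pass, and 1 passed against that order. The latter was Srxn1, with 60.1 ± 25.4 CPM in fat and 57.2 ± 31.8 CPM in liver but a fitted level lower in fat than in liver by 1.10 on the log2 scale (SE 0.31, adjusted p = 0.00897). Likewise Gsr in colon and liver did not pass (log2 -0.31, SE 0.14, adjusted p = 0.0702), and Hmox1 in fat (33.7 ± 4.42 CPM) and liver (16.0 ± 4.19 CPM) differed by -0.10 on the fitted scale (SE 0.20, adjusted p = 0.680), so the first place of colon for Gsr and of fat for Hmox1 rests on the CPM scale. Hypothalamus and hippocampus, neighbours for 9 of the 10 genes, did not pass for any of the 9. In FPKM, which corrects for length and allows genes to be compared within a library, Cat ranged from 1788 to 2932 over the liver libraries, against 14.5 to 24.6 for Nqo1, 124 to 182 for Gclc and at most 0.0278 for Slc7a11.

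Among 9 regulators of the pathway, Nfe2l2 itself had 1397, 1760 and 1802 counts in the AL, DR and DR-AL liver. Both DR and DR-AL passed against AL (log2 0.52, interval 0.41 to 0.62, and 0.38, interval 0.28 to 0.48). In the hypothalamus Nfe2l2 had 684, 1025 and 701 counts and only DR was higher (log2 0.44, interval 0.30 to 0.58). In fat Nfe2l2 had 2470, 2711 and 2956 counts, and DR was called on total counts (log2 0.33). The DR value missed the fold threshold with TMM (0.11) and passed it on the lower side on FPKM (-0.39, pseudocount of 0.1). The regulators of fat depend on the scaling. Their median in DR was 0.04 on total counts, -0.18 with TMM and -0.75 on FPKM. In DR-AL it was 0.26, -0.21 and -1.37. Keap1 was called once, in DR fat on total counts (1445 and 1736 counts in AL and DR, log2 0.46). Its value was 0.24 with TMM and -0.33 on FPKM. Colon and hippocampus had 0 of 9 regulators called in DR against AL (19.7% and 4.03% of all genes). In DR-AL against AL the calls were 1 of 9 in the liver (30.9% of all genes), 5 of 9 in fat (57.9%), 0 in colon (14.3%) and hypothalamus (15.1%), and 1 in the hippocampus (6.15%). The last was Maff, on 52 and 63 counts, fewer than the naming rule asks.

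In the liver DR library Mafg (2782 to 3363 counts, log2 0.46) and Maff (140 to 191 counts, log2 0.63), which encode small Maf partners, were higher than in AL. Sqstm1, the p62 adaptor that binds Keap1, had 10799, 7260 and 12013 counts in the AL, DR and DR-AL liver and was lower in DR (log2 -0.39) and not called in DR-AL (log2 0.17). Nfe2l1, a relative of Nrf2, had the same order, with 2845, 1910 and 3226 counts and a log2 fold change of -0.39 in DR. In fat on total counts, 4 of 9 regulators were called higher in DR-AL against AL, where 46% of all genes were called higher. They were Maff with 180, 161 and 735 counts (log2 1.97) and Mafk with 866, 656 and 1594 (0.82). The others were Cul3 with 3157, 3390 and 5318 (0.69) and Sqstm1 with 9798, 8142 and 14529 (0.51). With TMM these values were 1.49, 0.35, 0.22 and 0.036, so that Cul3 and Sqstm1 no longer passed the fold threshold, and on FPKM they were 0.31, -0.83, -0.88 and -1.18. Bach1, the repressor that competes for the same elements, was lower in fat, with 1217, 685 and 1008 counts (log2 -0.63 in DR and -0.33 in DR-AL). On total counts, Bach1 in the liver (1075, 766 and 859 counts), Mafg in fat (4343, 3103 and 4183) and Cul3, Keap1 and Mafk in the liver were not called. Mafg in DR fat passed the fold threshold on the lower side with DESeq size factors (log2 -0.47), TMM (-0.51) and FPKM (-1.08). In DR-AL fat its values were -0.45, -0.59 and -1.74. In the DR liver, 3 of 9 regulators were called higher and 2 lower on total counts, where 18% and 9.92% of all genes were. With DESeq size factors and TMM, 3 of 9 passed the fold threshold on the lower side. Under these scalings 2381 and 2406 of all 17408 genes were called lower by test and fold.

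Over 8 lists of related genes, 28 of 85 were called higher and 13 lower in the DR liver, where 18% of all genes were called higher and 9.92% lower. In DR fat they stood at 27 higher and 25 lower of 85 (35.2% and 10.4% of all genes), in the DR colon at 12 and 9 of 84 (9.04% and 10.6%), in the DR hypothalamus at 4 and 5 of 84 (4.33% and 2.72%) and in the DR hippocampus at 0 of 84 (4.03% in either direction). In DR-AL against AL they stood at 12 and 22 in liver (15% and 15.8%), 21 and 26 in fat (46% and 11.9%), 6 and 9 in colon (5.83% and 8.5%), 3 and 12 in hypothalamus (6.06% and 9.02%) and 7 and 2 in hippocampus (3.99% and 2.16%). The median of all 85 in the DR liver was 0.23, against 0.10 over all genes tested.

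The glutathione S-transferases, which join glutathione to electrophiles, were the longest of the lists. In the liver, in DR against AL, 14 of 22 were called higher and 2, Mgst1 and Gstp1, lower, with a median log2 fold change of 0.96 (18% and 9.92% of all genes called). Gstm3 had 258, 5877 and 206 counts, a log2 fold change in DR of 4.69 (interval 4.51 to 4.88) and no call in DR-AL (log2 -0.31). Gstm2 had 1187, 4107 and 951 counts (log2 1.97 in DR), Gstm6 had 1353, 4008 and 804 (1.75), Gsta2 had 1078, 3092 and 1011 (1.70) and Mgst3 had 338, 1213 and 432 (2.03). In DR-AL against DR, 2 were called higher and 14 lower (median -1.26), where 16.9% and 24% of all genes were. In DR-AL against AL, 6 were called higher and 8 lower (median -0.23), where 15% and 15.8% of all genes were. Gstt3 was lowest there at 2164, 4229 and 1006 counts (log2 -1.09). With DESeq size factors, TMM and FPKM the median of DR against AL stayed between 0.87 and 0.92. Members of this family are similar in sequence, and how reads shared by them were counted is not given in the sources used here, so single values are uncertain.

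**Figure D5:**
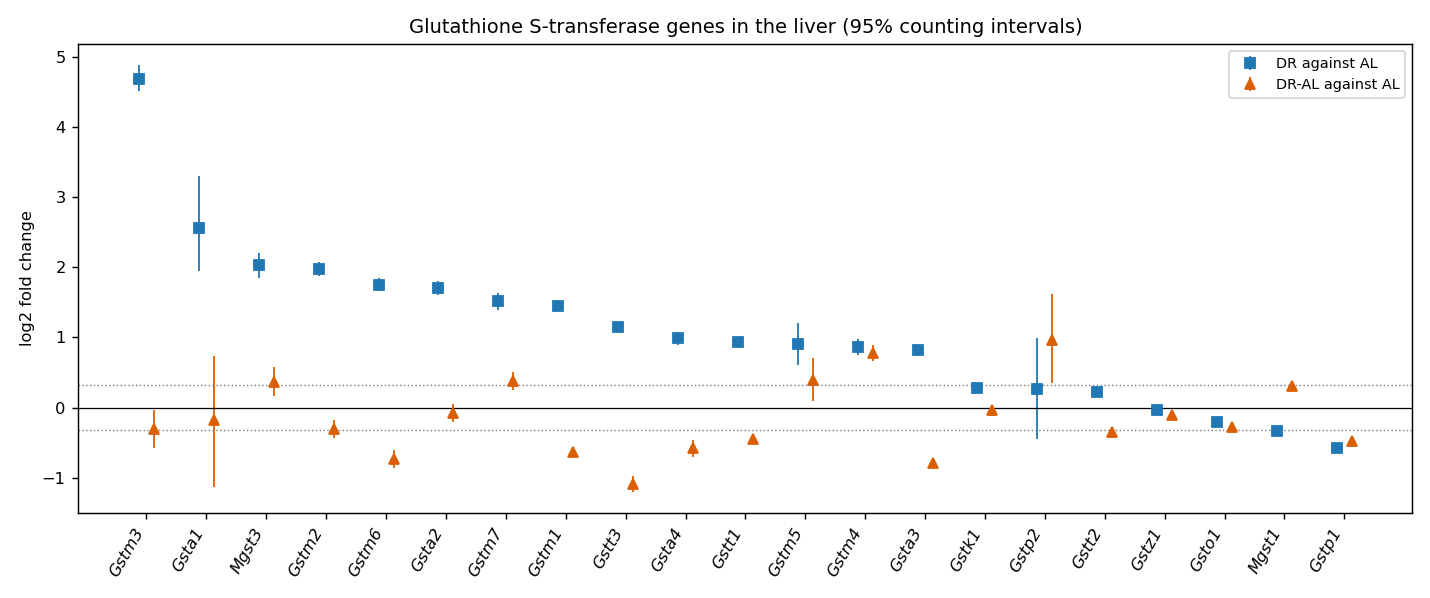
Log2 fold change of the glutathione S-transferase genes that averaged 10 counts or more in the liver, in DR and DR-AL against AL, ordered by the change in DR, with exact 95% counting intervals and dotted lines at the fold threshold. Gstm3 stands at 4.69 in DR and -0.31 in DR-AL.

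Genes that supply NADPH, the reductant used by Nqo1, Gsr and Txnrd1, were higher in DR liver and fat. In the liver 5 of 6 were called higher in DR (median 0.51, 18% of all genes called higher), and 3 passed the fold threshold with DESeq size factors, 3 with TMM and 4 on FPKM. Among the called genes were Pgd with 498, 848 and 375 counts in AL, DR and DR-AL (log2 0.95 in DR) and Tkt with 3056, 4325 and 1665 (log2 0.69). All 6 were called lower in DR-AL against DR (median -0.88, 24% of all genes called lower). In fat all 6 were called higher in DR (median 1.52, 35.2% of all genes called higher), with Me1 at 9804, 60001 and 7131 counts (log2 2.81, interval 2.78 to 2.84) and Tkt at 16242, 75027 and 9330 (log2 2.41). All 6 were lower in DR-AL than in DR (median -1.87, 13.3% of all genes called lower). With DESeq size factors and with TMM 5 of 6 passed the fold threshold in DR fat, and on deposited FPKM 4 did (median 0.74). In the colon Me1 was lower, at 453, 196 and 179 counts (log2 -1.54 and -1.25).

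The other genes with the largest calls are given by tissue. In the liver of DR-AL, Gpx3 was higher, at 143, 161 and 334 counts (log2 1.23), and Osgin1 (3417, 1436 and 1193, log2 -1.5), Txnrd3 (258, 246 and 106, -1.27) and Sesn2 (437, 185 and 193, -1.16) were lower. In fat, Abcc2 had 3165, 29 and 10 counts, alongside the liver markers, and Gpx5, a glutathione peroxidase of the epididymis, had 9, 3828 and 139 counts. Ggt1 (53, 485 and 677), Gstm7 (1060, 4289 and 13756) and Gstm5 (1096, 4040 and 10871) were higher in DR and DR-AL fat. The part of other cells in these fat values was not tested.

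In the colon, Ggt1, which breaks down extracellular glutathione, was lower at 408, 154 and 188 counts (log2 -1.73 and -1.03), Sesn1 was lower at 358, 249 and 241 (-0.85 and -0.49), and Prdx4 was higher in DR only, at 228, 577 and 193 (1.01). Gstm6 followed Prdx4 with 219, 443 and 205 counts (0.68), and Abcc2 (129, 214 and 51, -1.25), Gsta3 (393, 541 and 221, -0.74) and Gsta1 (279, 268 and 187, -0.49) were lower in DR-AL. In the hypothalamus, DR was higher for Sod3 (234, 417 and 236 counts, log2 0.69), Gstm2 (104, 178 and 48, 0.63) and Gpx8 (111, 188 and 74, 0.62), and lower for Gstm6 (1476, 1072 and 962, -0.60). In DR-AL, Gstm2 (-1.18), Gpx3 (9354, 7954 and 6067 counts, -0.70), Gstm6 (-0.69), Gstm4 (546, 463 and 357, -0.68) and Gpx8 (-0.65) were lower. In the hippocampus of DR-AL, Gpx3 (240, 156 and 222, 0.57), Txnip (1424, 1101 and 1175, 0.41), Cbr3 (254, 183 and 209, 0.40), Sesn3 (5864, 4758 and 4764, 0.39) and Mgst1 (380, 274 and 308, 0.38) were higher than AL on the CPM scale, the AL library having the larger total.

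The 10 genes varied between the libraries of different tissues. With 1 library per tissue and diet, this variation cannot be assigned to diet. The fat libraries also differed in make-up, as given above, and the part of that was not tested. Of the variation of log2(CPM + 1) around the tissue means over the 15 libraries, fat held 89.5% for Slc7a11, 89.1% for Sod2 and 61.5% for Nqo1, the colon held 69.6% for Gclm, and the liver held 55.4% for Srxn1 and 44.1% for Hmox1. The Pearson correlations of the genes on this scale (n = 15 libraries, which share tissues) ranged from 0.75 for Gclc with Gclm to -0.71 for Gsr with Cat. Among 7397 genes with at least 100 counts in each library, those closest to a member were Rcor3 for Nqo1 (r = 0.97), Zcchc11 for Gclc (0.95), Fbxo31 for Gclm (0.93), the locus of Mettl16 and Mnt for Slc7a11 (0.98), Parg for Gsr (0.95), the locus of Ddx18 and Htr5b for Txnrd1 (0.92), the locus of Amz2, Arsg and LOC100503496 for Srxn1 (0.97), Zfand5 for Hmox1 (0.90), Idh3b for Sod2 (0.98) and Ganc for Cat (0.91). The next were Mpg (0.93), Prpf18 (0.88), Inpp1 (0.91), Thop1 (0.96), Prkar1a (0.93), Fbxo38 (0.90), Serinc3 (0.96), Bsdc1 (0.88), Sdha (0.97) and Prnp (0.90) in the same order. These are the highest of many values and describe these libraries only.

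On GRCm38 (GENCODE M21), the genes lie at chr8:107388225-107403206 (Nqo1, minus strand), chr9:77754535-77794485 (Gclc, plus), chr3:122245557-122270732 (Gclm, plus), chr3:49892526-50443614 (Slc7a11, minus), chr8:33652523-33698163 (Gsr, plus), chr10:82833951-82897712 (Txnrd1, plus), chr2:152105516-152111376 (Srxn1, plus), chr8:75093621-75100589 (Hmox1, plus), chr17:13006846-13040063 (Sod2, plus) and chr2:103453849-103485160 (Cat, minus). Counts cover the whole locus and not single exons.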

How the data were processed

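RNA-Seq of 15 libraries (5 tissues by AL, DR and DR-AL, 1 library each of RNA pooled from 5 mice) was analysed. The authors deposited unnormalized read counts and FPKM values per locus. According to the methods, reads were stranded, free of ribosomal RNA, stripped of duplicates and aligned with Strand software to mm10, whereas the submitters' processing notes name mm9 and DESeq2. Of 21384 names matched to GENCODE M21, 13.6% overlap the GRCm38 position, so coordinates are from the annotation. The scaling of the FPKM values between libraries is not given in the sources used here. Loci without a gene name were left out of the totals.

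Within a tissue, counts were divided by the total on named loci and compared by the Z test of the methods on square roots, with a Poisson variance and Benjamini-Hochberg adjustment over genes with at least 1 count in the tissue. Log2 fold changes used a pseudocount of 0.5. Shared effects, the brain interaction and tissue levels used edgeR 4.0.16 (quasi-likelihood, TMM, filterByExpr), and alternatives used DESeq2 1.42.0. Residual degrees of freedom were 8 for the shared effects. The Z test was tried on simulated counts with counting error only, which is the variance it assumes, so this trial does not cover variation between animals. The edgeR fit was tried on simulated counts with added variation. All 30 value columns were matched to samples.

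Genes named are the 10 members, the regulators with a mean of at least 100 counts in a tissue, up to 5 list genes per tissue and comparison with the largest called changes at that count, marker genes, and the 2 genes closest to each member. Pgd, Mgst1, Gstp1 and hippocampal Maff were chosen after they were seen. The members and lists were chosen with earlier results of these data known.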

Additional observations from a re-analysis of the deposited data

Results flagged for a closer look

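Counts on the opposite strand of Srxn1, a locus used in no comparison above, were 20 in AL fat, 101 in DR fat and 287 in DR-AL fat, and between 3 and 40 in the 12 libraries of the other tissues. DR and DR-AL fat therefore lay above the AL library. The opposite strand of Gclc had 0 counts in AL fat, 3 in DR fat and 10 in DR-AL fat, and 0 in the other tissues, where a count of 0 allows up to 3 counts. Both locus pairs are counted by strand, and these opposite-strand totals were 1.39% and 0.0282% of the counts on the strand of the gene. The fat libraries are those in which the testis sum and, mostly through Crisp1, the epididymis sum rose from AL to DR and DR-AL. The median epididymis marker was highest in DR fat. The part of these tissues was not tested.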

How the results depend on the processing

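Within a tissue, no pairing of mice was possible because each tissue and diet had 1 library of pooled RNA and the labels carry no replicate numbers. The shared effects had tissue as a term, so there the diets were compared within tissues. With a dispersion estimated without regard to diet, which includes any effect of diet (coefficients of variation from 0.0701 in the hippocampus to 0.758 in fat), the edgeR exact test called 0 members in every tissue and comparison. It also called few of all genes, such as 56 higher and 18 lower of 17408 in DR liver against AL. In fat it called 0 and 1 of 20382 in DR and 874 and 160 in DR-AL, each against AL. The 0 is therefore not a result about the members. With a coefficient of variation of 0.1 the exact test called 4, 8 and 8 of 50 in DR against AL, DR-AL against AL and DR-AL against DR. In the first these were liver 1 (1024 higher and 516 lower of all 17408 genes), fat 3 (4535 and 1303 of 20382) and 0 elsewhere. The colon had 306 and 471 of 18242 there. In the second they were liver 2 (982 and 863), fat 5 (7277 and 1639), colon 1 (113 and 226) and 0 elsewhere. In the third they were liver 4 (1589 and 2374), fat 3 (5542 and 1663), hypothalamus 1 (74 and 292 of 19320) and 0 elsewhere. A fold of at least 2 left 2 (liver 1, fat 1), 3 (fat 3) and 3 (liver 1, fat 2), with 0 in the other tissues. Over all genes, the first comparison kept 978 higher and 469 lower in liver and 3911 and 959 in fat. The second kept 5887 and 935 in fat. The third kept 938 and 1644 in liver and 4282 and 905 in fat. DESeq size factors and TMM gave 5 calls in DR liver, and TMM 3 in fat for DR-AL against DR. Of 17408 genes in DR liver, DESeq size factors called 2439 higher and 2381 lower, and TMM 2417 and 2406. In that fat comparison TMM called 5644 and 4817 of 20382. No test was run on FPKM, so a call on FPKM means only that the fold threshold was passed. With pseudocounts of 0.1 and 1, FPKM gave 10 and 9 such calls in fat for DR-AL against DR. Of all 20382 genes, 3452 higher and 11521 lower passed with 0.1, and 1949 and 9142 with 1. In DR hypothalamus it gave 0 and 0 (1656 and 1470 of 19320 genes with 0.1, 395 and 245 with 1). In DR-AL hippocampus it gave 1 and 1 (3267 and 1155 of 18804, 1177 and 166). In DR colon a pseudocount of 1 gave 4 (1205 and 1642 of 18242). The cause was not tested.

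Among values called under total counts or the alternative, directions turned in fat alone. Values called under neither changed sign 14 times in fat and 61 times in the other tissues, over the 10 genes, all comparisons and all alternatives. For DR-AL against AL, TMM gave log2 changes of -0.40 for Gclc, -0.32 for Gsr, -0.040 for Txnrd1 and -0.12 for Hmox1. FPKM with pseudocounts of 0.1 and 1 gave, for DR against AL, -0.30 and -0.25 for Nqo1, -0.55 and -0.52 for Gsr, -0.61 and -0.57 for Txnrd1, -0.70 and -0.65 for Hmox1 and -0.26 and -0.26 for Sod2. For DR-AL against AL it gave -1.34 and -1.23 for Gclc, -1.33 and -1.23 for Gclm, -1.42 and -1.32 for Gsr, -1.16 and -1.06 for Txnrd1, -0.30 and -0.27 for Srxn1 and -1.28 and -1.16 for Hmox1. For DR-AL against DR it gave -0.60 and -0.54 for Gclc, -0.51 and -0.46 for Gclm, -0.87 and -0.80 for Gsr, -0.55 and -0.49 for Txnrd1, -0.42 and -0.39 for Srxn1, -0.58 and -0.51 for Hmox1 and -0.50 and -0.50 for Cat. Members called in fat for DR-AL against AL were 5 higher and 2 lower on total counts (9384 and 2418 of all 20382 genes). They were 3 and 2 with DESeq size factors (6817 and 5029 genes) and 3 and 4 with TMM (6187 and 6447). By the fold threshold alone, they were 1 and 7 on FPKM with a pseudocount of 0.1 (3851 and 13444).

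The shared effects had 0 of 10 members past the threshold under every alternative, leaving out each tissue included. Neighbouring tissues passed in 20 of 40 pairs, in 17 to 23 without one diet, and in 22 with DESeq2. Single libraries per tissue and diet, and counts under 100 for Slc7a11 in liver, colon and AL fat and for Hmox1 in colon, limit these values.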
